A study of Mus musculus with 16 samples.

Results

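Foxo1, Foxo3 and Foxp1 encode forkhead transcription factors that are best known in T cells for keeping resting cells quiescent, and their chromatin accessibility was followed here through regulatory T (Treg) cell development in the thymus. The regions counted for each gene were the ATAC-seq peaks that overlapped its RefSeq gene body or had it as the nearest protein-coding gene within 50 kb. This gave 135 of the 73442 peaks, of which 20 belonged to Foxo1, 19 to Foxo3 and 96 to Foxp1. All peaks of Foxo1 and Foxo3 and 95 of the 96 of Foxp1 had a mean of at least 10 normalised reads over the libraries and were tested, 134 in all.

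ATAC-seq measures open chromatin through the insertion of sequencing adapters by a transposase, and 40000 to 50000 sorted thymocytes went into each library. The mice were CNS4KO/YFoxp3GFP/Y or CNS4FL/YFoxp3GFP/Y on a C57BL/6J background, so both genotypes carried the Foxp3-GFP reporter and the mice with the element labelled CNS4 intact were the reference. Per the design text, Treg cells were Foxp3-GFP+, preTreg cells were CD25+ and Foxp3-GFP-, mSP cells were CD25-, Foxp3-GFP-, TCRβ high and CD24 low, and smSP cells were CD25-, Foxp3-GFP-, TCRβ low and CD24 high, all of them CD4+ CD8- TCRβ+. There were 2 mice per genotype, each mouse gave 4 libraries, 1 per population, and the 16 libraries held 5585827 to 11437401 reads in peaks. The age of the mice and the position of CNS4 were not given in the sources used here, so the genotype labels were not checked on the deleted element.

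Whether the libraries matched their gates was read from marker lists. Peaks of the Treg list (Foxp3, Il2ra, Ikzf2, Ctla4, Tnfrsf18) summed to 11545 to 12536 normalised reads in Treg libraries, against 8159 to 8928 in preTreg, 6371 to 6970 in mSP and 6594 to 7065 in smSP libraries. The labelled mSP and smSP libraries went against marker genes of their stages. Of the 95 tested peaks of mature thymocyte genes (among them S1pr1, Klf2 and Ccr7), 2 were higher and 54 lower in libraries labelled mSP than smSP. Of 22 peaks of semimature genes (Cd24a, Ccr9, Rag1, Rag2) 9 were higher and 0 lower. Of all peaks 8.65% were higher and 7.30% lower. For 1 CNS4KO mouse (T8) the descriptions of its mSP and smSP libraries also name the other population than their titles do. By title, the mature list summed to 5439 to 6640 normalised reads in mSP and 8065 to 9222 in smSP libraries, T8 included. The semimature list summed to 1934 to 2031 and 1525 to 1634. By these lists the T8 libraries grouped by title with those of the other mice. Taking T8 from the descriptions therefore places libraries of unlike marker levels in the same group. The titles are followed here, and the mSP and smSP libraries are called labelled mSP and labelled smSP.

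FOXO1 and FOXO3 bind DNA and switch on genes for quiescence, survival and homing, such as Klf2 and Il7r. Signalling through PI3K and AKT phosphorylates them and sends them out of the nucleus. FOXO1 is also needed for Treg cell development in mice. FOXP1 is a forkhead factor of another subfamily, and in mice it holds naive T cells quiescent and is required in Treg cells for normal function. Accessibility at these genes is a measure of open DNA, not of their RNA or protein.

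The promoters are shown first, since the peaks over the gene starts are described apart from those farther away. RefSeq promoter sequences of GRCm38.p6, the build that mm10 names, matched all 3 genes, with 1 annotated start for Foxo1, 1 for Foxo3 and 3 for Foxp1. Each runs from 250 bases before to 50 bases after the start, and capitals mark the forkhead core TGTTTA or its reverse complement TAAACA. The first pair is the promoters of Foxo1 (chr3:52268087-52268386, plus strand) and Foxo3 (chr10:42276646-42276945, minus strand), and the second pair is the Foxp1 starts that lay under a peak, at chr6:99266466-99266765 and chr6:99028249-99028548 (both minus strand).
Foxo1: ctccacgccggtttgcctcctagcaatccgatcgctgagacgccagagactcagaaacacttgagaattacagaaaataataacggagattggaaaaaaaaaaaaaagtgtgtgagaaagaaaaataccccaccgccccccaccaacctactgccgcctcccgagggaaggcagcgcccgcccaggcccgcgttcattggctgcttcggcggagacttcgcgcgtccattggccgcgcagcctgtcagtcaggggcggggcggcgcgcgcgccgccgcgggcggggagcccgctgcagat
Foxo3: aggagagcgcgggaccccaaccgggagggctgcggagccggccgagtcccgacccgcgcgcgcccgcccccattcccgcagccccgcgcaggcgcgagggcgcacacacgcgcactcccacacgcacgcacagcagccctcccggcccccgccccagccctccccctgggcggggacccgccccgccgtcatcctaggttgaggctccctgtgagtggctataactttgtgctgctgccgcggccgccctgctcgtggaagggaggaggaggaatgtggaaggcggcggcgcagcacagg
Foxp1, start at 99266515: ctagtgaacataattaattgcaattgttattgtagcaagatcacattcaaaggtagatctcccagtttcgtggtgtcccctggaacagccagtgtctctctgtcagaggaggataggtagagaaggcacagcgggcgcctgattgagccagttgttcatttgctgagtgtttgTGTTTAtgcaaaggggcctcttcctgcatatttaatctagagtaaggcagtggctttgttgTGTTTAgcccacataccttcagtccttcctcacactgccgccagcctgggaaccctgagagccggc
Foxp1, start at 99028298: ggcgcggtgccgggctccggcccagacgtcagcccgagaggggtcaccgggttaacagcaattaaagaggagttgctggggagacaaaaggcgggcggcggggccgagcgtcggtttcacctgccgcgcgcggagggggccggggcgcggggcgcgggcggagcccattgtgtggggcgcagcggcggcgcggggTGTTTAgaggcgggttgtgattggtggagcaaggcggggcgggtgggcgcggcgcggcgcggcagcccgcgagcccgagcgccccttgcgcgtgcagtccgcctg

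Searched on both strands, the core TGTTTA was found 2 times in the Foxp1 promoter at 99266515 and 1 time in each of the other 2 Foxp1 promoters, and in neither Foxo promoter. It occurs in 13.4% of the 32851 promoters of that length. The longer FOXO form TGTTTAC, which contains the core, was in none of the 5 promoters and in 3.6% of all. GGGCGG, the GC box, was found 5 times each in the Foxo1 and Foxo3 promoters, 3 times in the Foxp1 promoter at 99028298 and not at all at 99266515, and it occurs in 35.7% of promoters. CCAAT was found 3 times in the Foxo1 promoter and 1 time in the Foxp1 promoter at 99028298, against 37.4% of promoters with it. In guanine plus cytosine the Foxp1 promoter at 99266515 had 48.7%, while those of Foxo1, Foxo3 and Foxp1 at 99028298 had 61.3%, 75.0% and 75.3%. The third Foxp1 start, at 99520993, had no peak over it.

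Summed over its peaks, Foxp1 was least open in preTreg cells, Foxo1 was most open in Treg cells, and Foxo3 stayed nearly level. The sums are reads divided by 1 size factor per library, and a sum cannot be compared between genes because they differ in length and in peak number. In sorted bulk cells, a smaller share of cells with an open site and less opening per cell cannot be told apart. Sums were tested with limma on log2(sum + 1) over the 13528 genes with a peak, and an adjusted p is by the Benjamini-Hochberg method over all of them. By this test 39.2% of genes differed between Treg and preTreg, 69.0% between preTreg and labelled mSP and 62.5% between preTreg and labelled smSP. Against Treg, 60.3% differed in labelled mSP and 49.6% in labelled smSP, and 26.0% differed between those last 2 populations.

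Foxp1 summed to 6165 and 6234 normalised reads in CNS4KO Treg and 6890 and 7130 in CNS4FL Treg libraries, against 4994 and 4710 in CNS4KO preTreg and 4501 and 4402 in CNS4FL preTreg libraries. It reached 6479 and 5982 in CNS4KO and 5902 and 5550 in CNS4FL labelled mSP, and 6959 and 6763 in CNS4KO and 6249 and 6603 in CNS4FL labelled smSP libraries. All 4 preTreg libraries lay below all 12 others. The log2 fold of the Foxp1 sum was 0.50 in Treg against preTreg (95% interval 0.44 to 0.57, adjusted p 5.28e-17), -0.36 in preTreg against labelled mSP (adjusted p 4.89e-13) and -0.51 in preTreg against labelled smSP (adjusted p 1.26e-17). Over all genes the median log2 fold of the sums was -0.07, 0.13 and 0.14 in these comparisons, so the Foxp1 fold had the opposite sign to the median gene in each. Treg and labelled smSP did not differ by the test over both genotypes (log2 fold -0.01, 95% interval -0.08 to 0.06), but the log2 fold was -0.15 in the CNS4KO mice alone (adjusted p 0.012) and 0.13 in the CNS4FL mice alone (adjusted p 0.0377). Against labelled mSP, Treg was higher by 0.14 (adjusted p 0.000243), with -0.01 in the CNS4KO mice alone (adjusted p 0.928) and 0.29 in the CNS4FL mice alone (adjusted p 2.19e-06).

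Foxo1 summed to 2368 and 2248 normalised reads in CNS4KO Treg and 2112 and 1961 in CNS4FL Treg libraries. In preTreg it had 1765 and 1778 in CNS4KO and 1686 and 1687 in CNS4FL libraries. The labelled mSP libraries had 1472 and 1511 in CNS4KO and 1481 and 1393 in CNS4FL mice, and the labelled smSP libraries 1693 and 1637 in CNS4KO and 1566 and 1574 in CNS4FL mice. The Treg libraries were all above the others and the labelled mSP libraries all below, while preTreg and labelled smSP overlapped. Treg exceeded preTreg by a log2 fold of 0.33 (adjusted p 1.61e-08) and labelled mSP by 0.57 (adjusted p 6.81e-16). The log2 fold of preTreg against labelled smSP was 0.10 (adjusted p 0.0422), below that of the median gene, and with edgeR on summed reads it was -0.03 (adjusted p 0.522).

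Foxo3 averaged 3182 ± 244 normalised reads in Treg, 3199 ± 156 in preTreg, 3008 ± 179 in labelled mSP and 2995 ± 187 in labelled smSP libraries (SD, n = 4 each). The 4 populations overlapped. Treg exceeded labelled smSP by a log2 fold of 0.09, which was not called (adjusted p 0.0716) except with the mouse as a block, among other alternatives (adjusted p 0.0433). Treg against preTreg gave a log2 fold of -0.01 with a 95% interval of -0.09 to 0.07 (adjusted p 0.872). The preTreg level exceeded labelled mSP by 0.09 (adjusted p 0.0457) and labelled smSP by 0.10 (adjusted p 0.0361), less than the median gene did, and edgeR gave -0.03 and -0.04 there (adjusted p 0.541 and 0.456).

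**Figure D1:**
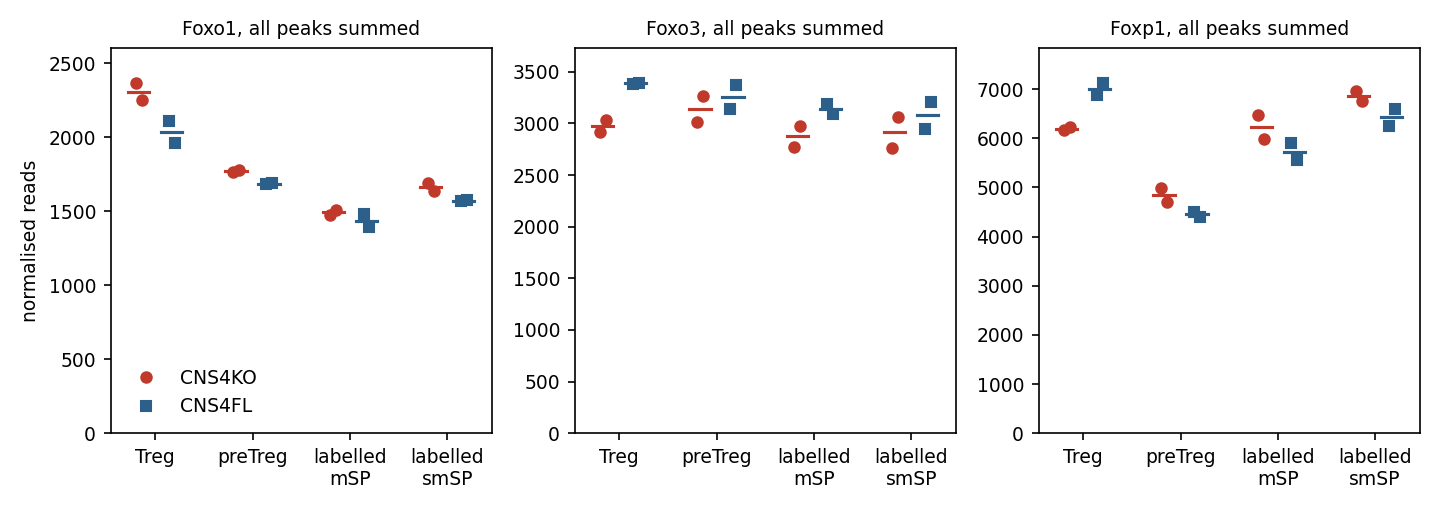
Summed normalised reads over all peaks of Foxo1, Foxo3 and Foxp1 (vertical axis) in each library, by population. Red circles are CNS4KO and blue squares CNS4FL mice, short bars are means of 2 mice, and the 4 preTreg values of Foxp1, between 4402 and 4994, lie below all others.

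Peak by peak, the Foxp1 locus was the most changed of the 3 between Treg and preTreg cells. Of its 95 tested peaks 55 were higher in Treg, 7 were lower and 33 were not called, where called means an adjusted p under 0.05, which is 65.3% of them against 28.8% of all peaks (14.2% higher and 14.6% lower). The median Foxp1 peak had a log2 fold of 0.59. Over all 73140 peaks tested the median was -0.03. In preTreg against labelled mSP, 15 Foxp1 peaks were higher and 45 lower (58.3% of all peaks were called, 28.9% higher and 29.4% lower), and in preTreg against labelled smSP 7 were higher and 55 lower (47.3% of all peaks were called, 23.1% higher and 24.1% lower). These comparisons share the preTreg libraries. In Treg against labelled mSP 35 Foxp1 peaks were higher and 22 lower (54.1% of all peaks were called), and in Treg against labelled smSP 21 were higher and 26 lower (42.0% of all peaks were called).

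At 31 of the 95 peaks (32.6%) preTreg was called lower than Treg, labelled mSP and labelled smSP alike, against 4573 of all 73140 peaks (6.25%). With edgeR these were 34 Foxp1 peaks and 6.83% of all peaks, and without both labelled mSP and smSP libraries of mouse T8 they were 32 and 5.84%. In the CNS4FL mice alone 27 Foxp1 peaks met it (6.41% of all peaks), and in the CNS4KO mice alone 7 did (1.44% of all peaks). The 31 peaks lay between 37.3 and 465.6 kb downstream of the 5′ end of the gene body, with a median of 212.7 kb.

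The strongest Foxp1 peak, in the gene body at chr6:99309326-99309847, was one of them. It had 320 and 264 normalised reads in CNS4KO and 392.4 and 443 in CNS4FL Treg libraries, against 189 and 180 in CNS4KO and 217 and 185 in CNS4FL preTreg libraries. In labelled mSP it had 288 and 250 in CNS4KO and 266 and 269 in CNS4FL mice, and in labelled smSP 340 and 348 in CNS4KO and 369 and 425 in CNS4FL mice. The preTreg libraries were the 4 lowest. The log2 fold was 0.85 in Treg against preTreg (SE 0.09, adjusted p 1.81e-09) and -0.94 in preTreg against labelled smSP (SE 0.09, adjusted p 1.05e-10).

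The peak over the internal start at 99266515, whose promoter is printed above, belonged to the same group (chr6:99266325-99266579). Its reads were 53.5 and 59.5 in CNS4KO and 75.9 and 64.9 in CNS4FL Treg libraries, against 48.0 and 46.9 in CNS4KO and 45.4 and 45.0 in CNS4FL preTreg libraries. The labelled mSP and smSP libraries had 81.7 to 129 and 82.6 to 113. All preTreg libraries lay below all Treg libraries, and those below all libraries of the labelled CD25- populations. Treg against preTreg was called by limma (log2 fold 0.43, adjusted p 0.0235), but lost the call under 10 of 25 alternatives. At the other start under a peak, at 99028298 (chr6:99028143-99028299), no population comparison with preTreg was called, with log2 folds from 0.14 to 0.27.

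A smaller number of Foxp1 peaks opened stepwise. At 4 peaks (4.21%) preTreg was called higher than both labelled CD25- populations and Treg called higher than preTreg, against 1210 of all 73140 peaks (1.65%). The clearest was at chr6:99340986-99341177, with 80.3 and 128 normalised reads in CNS4KO and 91.0 and 111 in CNS4FL Treg libraries, against 41.5 and 29.4 in CNS4KO and 23.1 and 47.7 in CNS4FL preTreg libraries. The 8 labelled mSP and smSP libraries had 2.30 to 6.72, of which the lowest are a few reads. The 3 levels did not overlap, and the log2 fold of log2(value + 1) was 1.54 in Treg against preTreg (adjusted p 0.000456) and 2.74 in preTreg against labelled mSP (adjusted p 1.3e-08). A second, at chr6:99050636-99050884, had 145 to 180 reads in Treg, 71.1 to 92.7 in preTreg, 3.44 to 12.9 in labelled mSP and 10.8 to 18.8 in labelled smSP libraries. Its log2 fold was 1.01 in Treg against preTreg (adjusted p 0.00222) and 3.24 in preTreg against labelled mSP (adjusted p 3.43e-12).

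The largest Foxp1 fold in Treg against preTreg was at a site that was near the level of a few reads elsewhere. The peak at chr6:99328695-99328892 had 59.6 and 49.9 normalised reads in CNS4KO and 54.6 and 59.4 in CNS4FL Treg libraries, against 9.23 and 5.51 in CNS4KO and 5.14 and 5.30 in CNS4FL preTreg libraries. The labelled mSP and smSP libraries had 1.34 to 9.18. The log2 fold was 2.99 (SE 0.44, adjusted p 1.68e-06), and preTreg did not differ from labelled mSP by the test (log2 fold 0.16, SE 0.44, adjusted p 0.774).

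Some Foxp1 sites went the other way. At chr6:99502167-99502322 the Treg libraries had 2.43 and 7.68 normalised reads in CNS4KO and 2.02 and 10.4 in CNS4FL mice, the preTreg libraries 7.39 to 16.5, the labelled mSP libraries 36.6 to 51.6 and the labelled smSP libraries 29.9 to 43.5. Treg and preTreg overlapped there and both lay below the rest. The fold of Treg against preTreg was -1.17 (adjusted p 0.0135, or 0.0501 by edgeR) and that of preTreg against labelled mSP was -1.81 (adjusted p 6.89e-05), both on the log2 scale. Another 3 of the 7 peaks that were lower in Treg stood side by side at 133.6 to 133.9 kb. One of them, chr6:99389083-99389291, had 62.0 and 48.0 reads in CNS4KO and 71.8 and 62.1 in CNS4FL Treg libraries, against 155 and 151 in CNS4KO and 128 and 83.8 in CNS4FL preTreg libraries, a log2 fold of -1.05 (adjusted p 2.54e-07).

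Along the gene the direction of the preTreg change was not uniform. In Treg against preTreg, 8 of 8 peaks between 302 and 391.5 kb from the 5′ end were called higher, and 17 of 26 between 200 and 284.8 kb, while of the 3 peaks upstream of the gene none was called. In preTreg against labelled mSP, 17 of the 26 peaks between 200 and 284.8 kb were called lower and 3 higher, but between 422 and 529.8 kb 8 of 19 were called higher and 4 lower. Within 1 kb of an annotated start or of the 5′ end of the gene body, 1 of 8 Foxp1 peaks was called in Treg against preTreg. Elsewhere 54 of 87 were higher and 7 lower.

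**Figure D2:**
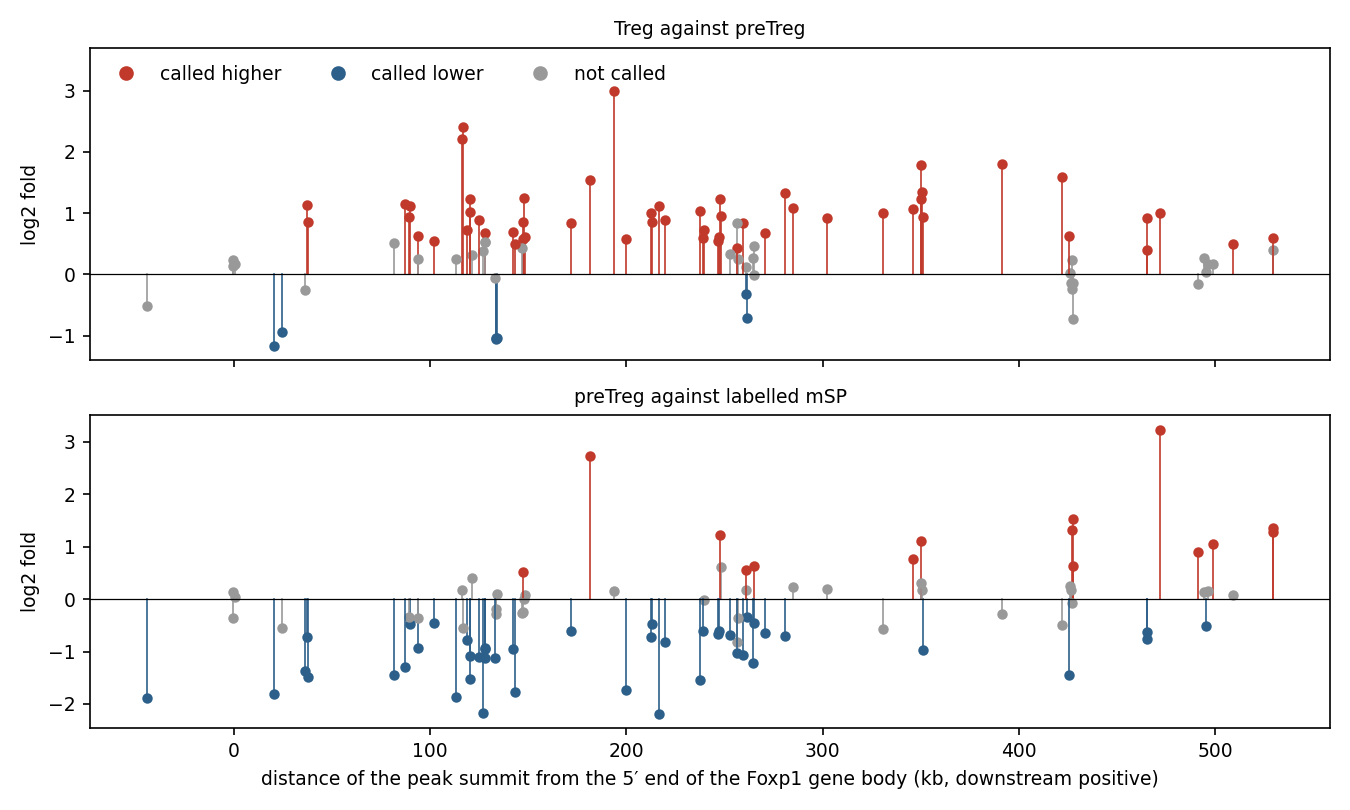
Log2 fold (vertical axis) of each tested Foxp1 peak against the distance of its summit from the 5′ end of the gene body in kb, for Treg against preTreg (top) and preTreg against labelled mSP (bottom). Red is called higher, blue called lower and grey not called: 55 peaks were higher and 7 lower in Treg, and 15 were higher and 45 lower in preTreg.

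Markers of earlier thymocytes were low in preTreg cells too. Peaks of double positive thymocyte genes (Cd8a, Cd8b1, Arpp21, Rag1) summed to 1267 to 1688 normalised reads in CNS4KO Treg and 2381 to 2519 in CNS4FL Treg libraries, against 1202 to 1268 in preTreg, 3079 to 3307 in labelled mSP and 2758 to 3068 in labelled smSP libraries. Of the 28 peaks of this list 20 were higher and 0 lower in Treg than in preTreg (14.2% of all peaks were higher). In preTreg against labelled mSP 0 were higher and 27 lower (29.4% of all peaks were lower). The part of these markers in the Foxp1 result was not tested. The log2 fold of the Foxp1 sum in Treg against preTreg was 0.35 in the CNS4KO mice alone (adjusted p 4.39e-07) and 0.65 in the CNS4FL mice alone (adjusted p 1.13e-14). The number of called peaks of the 3 genes together in Treg against preTreg was 33 in CNS4KO mice alone (26 higher, 7 lower), where 12.7% of all peaks were called, and 71 in CNS4FL mice alone (66 higher, 5 lower), where 25.3% were. Peaks of the erythroid and stromal list were higher in Treg than in preTreg at 5 of 7, and those of the B cell list at 3 of 6 (14.2% of all peaks were higher). The B cell list summed to 252 to 334 normalised reads in Treg, 152 to 213 in preTreg, 359.5 to 414 in labelled mSP and 331 to 350 in labelled smSP libraries. The erythroid and stromal list had 207 to 288, 152 to 168, 408 to 425.5 and 308 to 398 in the same order. The NK and NKT list went the other way, with 1703 to 1744 in Treg and 1768 to 1995.5 in preTreg libraries. Among defining markers Cd79b and Ms4a1 (B cells), Hbb-bt (erythroid cells) and Pdgfra (stroma) had no peak, nor did Lyz2, Csf1r and Itgax of myeloid cells. The part of these lists was not tested either.

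At Foxo1 the peak over the gene start was not called between Treg and preTreg, while a few distal sites were called higher in Treg. The peak over the start (chr3:52268206-52268710), the strongest of the gene, had 457 and 477 normalised reads in CNS4KO and 553 and 502 in CNS4FL Treg libraries, against 452 and 466 in CNS4KO and 449 and 469 in CNS4FL preTreg libraries. The log2 fold of Treg against preTreg was 0.11 (SE 0.07, adjusted p 0.226), and preTreg exceeded labelled mSP by 0.21 (adjusted p 0.00699). Treg exceeded labelled mSP there by 0.33 (adjusted p 1e-04) and labelled smSP by 0.32 (adjusted p 0.000237). In Treg against preTreg limma called none of the 7 peaks within 1 kb of the start, where the largest log2 fold was 0.35, and of the 13 peaks elsewhere 6 were higher and 1 lower. Over the whole gene 9 of 20 peaks had an unadjusted p under 0.05. Limma and edgeR called 7 each, which is 35% of the 20, against 28.8% and 30.4% of all peaks. The share called among all peaks near a start is not given here, nor for Foxp1 and Foxo3.

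The strongest distal Foxo1 site lay downstream of the gene, 128.2 kb from its start (chr3:52396171-52396745). It was 46062 bases past the gene end and was counted by nearest gene only, as were its neighbours up to 48018 bases past the end. Of the Foxo1 sum, on average 2172 in Treg and 1729 in preTreg libraries, this peak held 497 and 327. It had 663 and 494 normalised reads in CNS4KO and 429 and 400 in CNS4FL Treg libraries, against 340 and 377 in CNS4KO and 290 and 303 in CNS4FL preTreg libraries. In labelled mSP it had 196 and 207 in CNS4KO and 237 and 172 in CNS4FL mice, and in labelled smSP 274 and 298 in CNS4KO and 274 and 251.0 in CNS4FL mice. The Treg libraries were the 4 highest and the labelled mSP libraries the 4 lowest. Treg exceeded preTreg by a log2 fold of 0.58 (adjusted p 1.12e-05) and preTreg exceeded labelled mSP by 0.69 (adjusted p 1.82e-07).

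An intragenic site 30.5 kb from the start (chr3:52298765-52298970) was also called higher in Treg than in preTreg, and in preTreg than in both labelled CD25- populations. Its reads were 162 and 99.8 in CNS4KO and 68.8 and 91.8 in CNS4FL Treg libraries, against 64.6 and 48.7 in CNS4KO and 61.7 and 70.6 in CNS4FL preTreg libraries, and they were 24.1 to 34.9 in labelled mSP and 17.3 to 34.9 in labelled smSP libraries. Only 1 Treg library overlapped with preTreg. The log2 fold was 0.72 in Treg against preTreg (adjusted p 0.00737) and 1.26 in preTreg against labelled smSP (adjusted p 4.84e-06).

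The largest Foxo1 fold in Treg against preTreg was at chr3:52397399-52397580, next to the strong downstream site. It had 52.3 and 74.9 normalised reads in CNS4KO and 57.7 and 50.4 in CNS4FL Treg libraries, against 13.9 and 16.5 in CNS4KO and 6.00 and 10.6 in CNS4FL preTreg libraries (log2 fold 2.29, adjusted p 3.02e-08). The labelled mSP and smSP libraries had 15.8 to 18.4 and 11.5 to 22.8, so the Treg libraries stood above all others, and preTreg against labelled mSP was not called (log2 fold -0.60, adjusted p 0.0567). One Foxo1 peak, at chr3:52343610-52343824, was called lower in Treg than in preTreg, with 63.2 and 55.7 reads in CNS4KO and 30.3 and 42.8 in CNS4FL Treg libraries, against 67.4 and 70.8 in CNS4KO and 65.9 and 65.3 in CNS4FL preTreg libraries (log2 fold -0.53, adjusted p 0.0214).

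**Figure D3:**
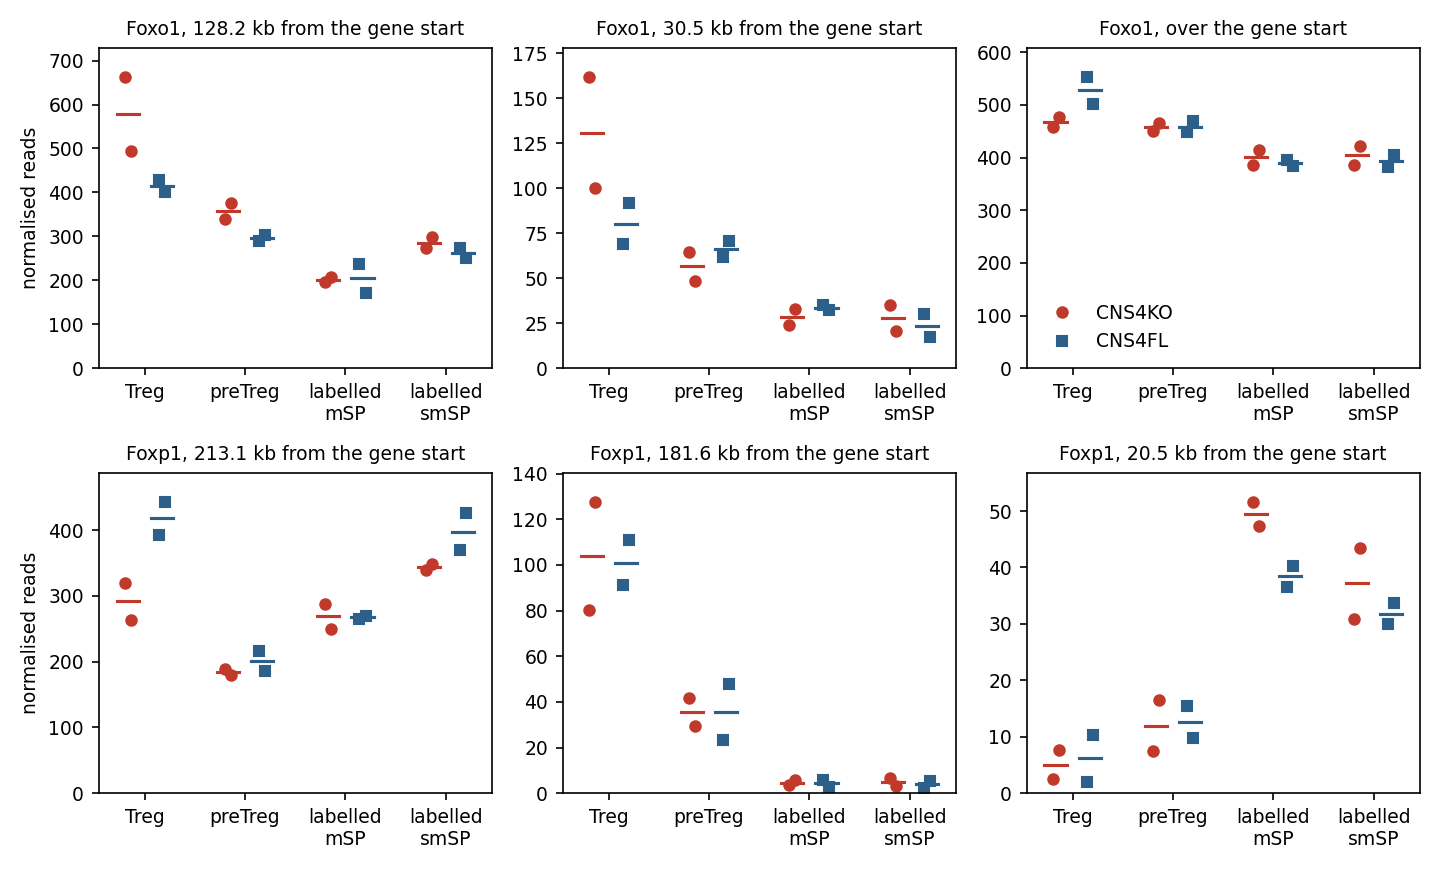
Normalised reads per library (vertical axes, from 0) at 3 Foxo1 peaks (top: the downstream site, the intragenic site and the gene start) and 3 Foxp1 peaks (bottom: the strongest peak, a stepwise site and a site that was low in Treg). Red circles are CNS4KO, blue squares CNS4FL and short bars means of 2 mice: the stepwise site has 2.30 to 6.72 reads in the labelled CD25- libraries and 80.3 to 128 in Treg libraries.

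At Foxo3 a few intragenic sites were low in preTreg cells. Of the peaks near its start, some were called higher in preTreg or Treg cells than in the labelled CD25- populations. In Treg against preTreg 3 of 19 Foxo3 peaks (15.8%) were higher and 0 lower, a smaller share than the 28.8% called of all peaks, and in preTreg against labelled mSP 7 were higher and 7 lower (73.7%, against 58.3% of all peaks). All 3 that were higher in Treg were lower in preTreg than in labelled mSP and smSP too, and they lay between 50.4 and 83.5 kb from the start. At chr10:42220091-42220273 the Treg libraries had 31.6 and 29.8 normalised reads in CNS4KO and 44.5 and 42.8 in CNS4FL mice, and the preTreg libraries 15.7 and 23.9 in CNS4KO and 10.3 and 23.0 in CNS4FL mice. The labelled mSP libraries had 60.3 to 100 and the labelled smSP libraries 43.7 to 58.8. None of preTreg, Treg and labelled mSP overlapped, with a log2 fold of 1.04 in Treg against preTreg (adjusted p 0.000175) and -2.18 in preTreg against labelled mSP (adjusted p 7.09e-11).

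At chr10:42193091-42193275 the Treg libraries were the highest, apart from an overlap with 1 labelled mSP library at 66.6 reads. Its reads were 63.2 and 85.4 in CNS4KO and 86.0 and 108 in CNS4FL Treg libraries, against 32.3 and 33.1 in CNS4KO and 42.0 and 28.2 in CNS4FL preTreg libraries (log2 fold 1.30, adjusted p 2.13e-06). Of the 8 Foxo3 peaks within 1 kb of the start 5 were higher and 0 lower in preTreg than in labelled mSP. Of the 11 peaks elsewhere 2 were higher and 7 lower, against 28.9% and 29.4% of all peaks. Of the same 8 peaks 3 were higher and 0 lower in Treg than in labelled mSP (54.1% of all peaks were called). None was called in Treg against preTreg. Against labelled smSP, 3 of the 8 were higher in preTreg (47.3% of all peaks were called) and 3 in Treg (42.0%), with 0 lower in each. The peak over the start (chr10:42276551-42276956) had 577 and 660 reads in CNS4KO and 613 and 672 in CNS4FL preTreg libraries, against 500 and 467 in CNS4KO and 528 and 512 in CNS4FL labelled mSP libraries (log2 fold 0.33, adjusted p 9.2e-05). Its Treg libraries had 533 to 597, which gave a log2 fold of -0.16 against preTreg (adjusted p 0.0666). The strongest Foxo3 peak, just upstream (chr10:42277571-42278032), averaged 1034 ± 93.8 in Treg, 1115 ± 67.7 in preTreg, 945 ± 51.9 in labelled mSP and 936 ± 83.0 in labelled smSP libraries (SD, n = 4 each).

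Between the 2 CD25- populations as labelled, 24 of the 134 peaks were called, 3 higher and 21 lower in labelled mSP (15.9% of all peaks were called, 8.65% higher and 7.30% lower). Of the 21 lower ones 18 were Foxp1 peaks and 3 Foxo1 peaks. The Foxp1 sum was lower in labelled mSP by a log2 fold of -0.15 (adjusted p 0.000452) and the Foxo1 sum by -0.14 (adjusted p 0.00846). With the 2 populations of T8 taken from the descriptions these were -0.06 (adjusted p 0.529) and -0.09 (adjusted p 0.468). As a mean of log2 values over peaks the adjusted p was 0.0633 for Foxp1 and 0.257 for Foxo1. Over gene body peaks only, the Foxo1 log2 fold was -0.07 (adjusted p 0.32). In CNS4FL and in CNS4KO mice alone the Foxo1 sum was not called either (adjusted p 0.156 and 0.0856). The call was also lost without the second CNS4FL mouse (adjusted p 0.0582 for Foxp1 and 0.135 for Foxo1), and for Foxo1 without the first CNS4KO mouse (0.0976) or the second CNS4FL labelled mSP library (0.0611). With the 2 populations of mouse T8 taken from the descriptions, limma called none of them, and without both of these libraries it called 23. Without either CNS4FL mouse it called 10.

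Genes of the same pathway were counted in the same way. Of 256 tested peaks of 15 FOXO target genes 91 were higher and 22 lower in Treg than in preTreg (35.5% and 8.59%, against 14.2% and 14.6% of all peaks), with a median log2 fold of 0.24. Gabarapl1, an autophagy gene, had the smallest share, with 0 of 5 called. Tcf7 and S1pr1 went the other way from the list as a whole. Tcf7 had 3 of 25 peaks higher and 6 lower (log2 fold of its sum -0.20, adjusted p 5.68e-05). S1pr1 had 5 of 34 higher and 8 lower (-0.13, adjusted p 0.0329). In preTreg against labelled mSP 79 peaks of the list were higher and 69 lower (30.9% and 27.0%), near the 28.9% and 29.4% of all peaks. The largest share was at Ctla4, the gene of an inhibitory receptor of Treg cells, with 20 of 27 peaks higher and 5 lower.

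Upstream of the FOXO factors, 35 of 167 peaks of 13 PI3K, AKT and FOXO signalling genes were higher and 21 lower in Treg than in preTreg (21.0% and 12.6%, against 14.2% and 14.6% of all peaks). Pik3cd, the catalytic subunit of PI3K delta, had 1 of 9 peaks higher and 7 lower and a log2 fold of its sum of -0.55 (adjusted p 7.94e-12). In preTreg against labelled mSP it had 8 of 9 higher, and its sum exceeded that of labelled mSP by 0.62 (adjusted p 5.62e-14). Akt1 and Pdpk1, kinases that act on FOXO factors or upstream of them, had 0 of 7 and 0 of 9 peaks called in Treg against preTreg. Phlpp1 and Pik3r1 of the same list went the other way from Pik3cd in Treg against preTreg. Phlpp1 had 14 of 28 peaks higher and 1 lower (log2 fold of its sum 0.31, adjusted p 3.72e-09). Pik3r1 had 13 of 46 higher and 1 lower (0.16, adjusted p 0.000116).

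Other quiescence genes had 75 of 336 peaks higher and 35 lower in Treg than in preTreg (22.3% and 10.4%). Bach2, a repressor that restrains T cell effector programmes, had 38 of 78 higher and 6 lower, with a log2 fold of its sum of 0.34 (adjusted p 1.75e-11), and Klf4 had 0 of 9 called. Runx1 of the same list went the other way, with 0 of 40 higher and 15 lower. The log2 fold of its sum was -0.44 (adjusted p 5.52e-13). Of 101 peaks of 11 other forkhead genes 2 were higher and 14 lower (1.98% and 13.9%). Foxn2 had 0 of 12 higher and 4 lower and a log2 fold of its sum of -0.29 (adjusted p 4.71e-07), the other direction from Foxp1 and Foxo1. Foxm1 had no peak.

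**Figure D4:**
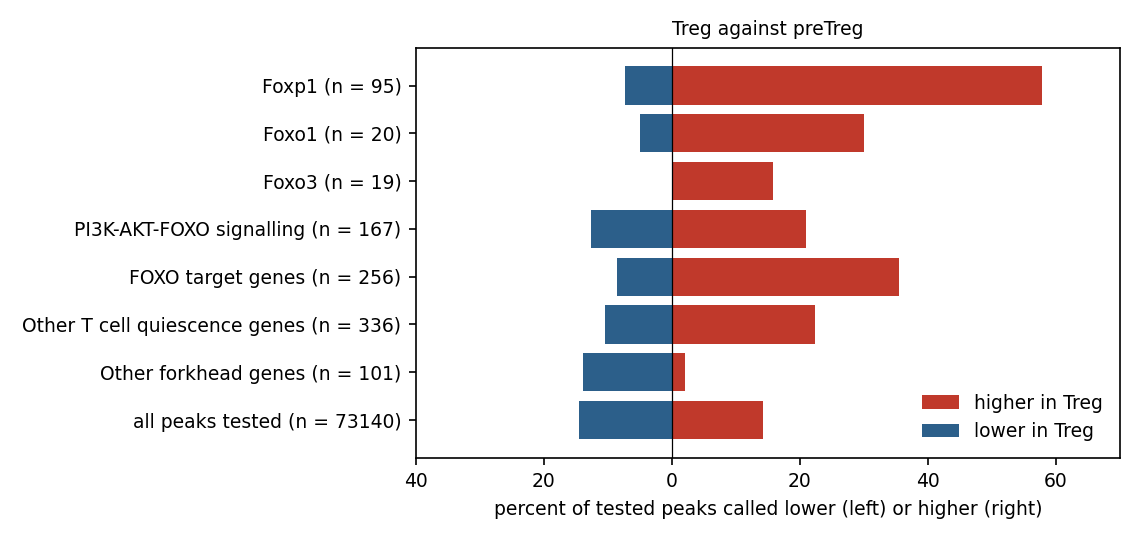
Percent of tested peaks called higher (red, right) or lower (blue, left) in Treg against preTreg for the 3 genes, 4 lists of related genes and all 73140 peaks tested, with the number of peaks in brackets. For Foxp1 55 of 95 peaks were higher, for other forkhead genes 2 of 101.

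The CNS4 genotype was compared within each population between 2 CNS4KO and 2 CNS4FL mice. In Treg cells 4 of 134 peaks were called, all lower in CNS4KO (1.77% of all peaks were called, 1.08% lower), 3 of them at Foxp1 and 1 at Foxo3. By edgeR 1 was higher and 6 lower (2.78% of all peaks were called), and limma with the mouse as a block called 7. Without either CNS4FL Treg library limma called 0, without the first CNS4KO Treg library 1, and with the T8 libraries taken from the descriptions 0.

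The strongest Foxp1 peak, described above, had 320 and 264 normalised reads in CNS4KO Treg libraries, against 392.4 and 443 in CNS4FL Treg libraries (log2 fold -0.52, SE 0.12, adjusted p 0.0203). At chr6:99420709-99420969 there were 79.1 and 96.0 reads in CNS4KO against 152 and 155 in CNS4FL Treg libraries (log2 fold -0.81, adjusted p 0.0306). At chr6:99485248-99485326 the values were 18.2 and 43.2 in CNS4KO and 54.6 and 66.9 in CNS4FL Treg libraries (log2 fold -1.08, adjusted p 0.0454). All 3 sites were among the 31 that were low in preTreg. That group was chosen with the same Treg libraries, so the overlap is not independent of the genotype call. At each site the CNS4KO Treg libraries lay below the CNS4FL ones. The Foxo3 peak at chr10:42220546-42220732 had 14.6 and 32.6 reads in CNS4KO against 45.5 and 58.0 in CNS4FL Treg libraries (log2 fold -1.19, adjusted p 0.0493).

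The Foxp1 sum was lower in CNS4KO than in CNS4FL Treg libraries by a log2 fold of -0.18 (95% interval -0.27 to -0.08, adjusted p 0.0142), while 6.58% of all genes were called. In preTreg, labelled mSP and labelled smSP it was 0.12, 0.12 and 0.09, with adjusted p from 0.213 to 0.332 (1.42%, 1.27% and 1.04% of all genes called). The genotype effect on the Foxp1 sum differed between populations by the interaction F test (adjusted p 0.006, 2.55% of all genes called), and no single member peak passed that test (0 of 134 by limma, 12 at an unadjusted p under 0.05, 1 by edgeR, against 0.402% of all peaks by limma and 0.860% by edgeR). Both calls were lost under several alternatives. With the T8 libraries taken from the descriptions the adjusted p was 0.167 for the fold in Treg and 0.162 for the interaction. As a mean of log2 values over peaks it was 0.335 and 0.549. Leaving out single libraries also removed the calls. The fold in Treg had an adjusted p of 0.0561 without the first CNS4FL Treg library, 0.18 without the second and 0.169 without the first CNS4KO Treg library, and the interaction had 0.106 without the second CNS4FL and 0.0817 without the first CNS4KO Treg library.

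Foxo3 was lower in CNS4KO Treg libraries too, with 2916 and 3033 reads against 3383 and 3394 in CNS4FL (log2 fold -0.19, adjusted p 0.034), and its mean over each mouse's 4 libraries was lower by -0.11 (adjusted p 0.0246, 7.20% of all genes called). In Treg the adjusted p was 0.165 and 0.178 without the first and the second CNS4FL library and 0.332 without the first CNS4KO library. Over all populations it was 0.34 without the first CNS4KO mouse, 0.0665 without the first CNS4FL mouse and 0.42 without the second. For Foxo1 the Treg log2 fold was 0.18 (95% interval 0.06 to 0.30, adjusted p 0.0529, or 0.0411 with the mouse as a block).

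The double positive markers differed by genotype in Treg cells as well. Of their 28 peaks 0 were higher and 10 lower in CNS4KO than in CNS4FL Treg libraries (1.08% of all peaks were lower). The sums were those given above. Semimature genes summed to 833 to 1167 normalised reads in CNS4KO and 1387 to 1442 in CNS4FL Treg libraries. Their part in the Foxp1 and Foxo3 differences was not tested.

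**Figure D5:**
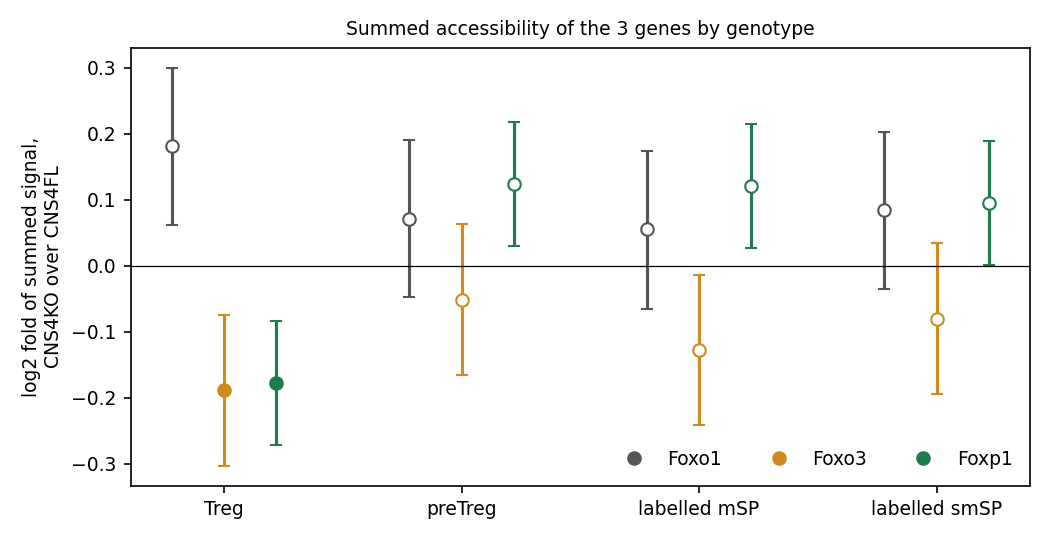
Log2 fold of the summed signal in CNS4KO over CNS4FL libraries (vertical axis, bars are 95% intervals from limma) of Foxo1, Foxo3 and Foxp1 in each population, 2 mice per genotype. Filled points have an adjusted p under 0.05, which in Treg are Foxp1 at -0.18 and Foxo3 at -0.19.

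In preTreg cells 1 peak was called (0.409% of all peaks, 0.357% higher), at chr6:99257885-99257992 in Foxp1, with 42.5 and 53.3 normalised reads in CNS4KO against 15.4 and 28.2 in CNS4FL libraries (log2 fold 1.15, adjusted p 0.0444). It was not called under 6 of 16 alternatives. In labelled mSP and labelled smSP limma called 0 each (0.246% and 0.0848% of all peaks), with 14 peaks each at an unadjusted p under 0.05 and 1 and 0 called by edgeR (0.412% and 0.108% of all peaks). On 1 mean per mouse over the 4 populations 3 peaks were called (2.36% of all peaks). Of these the Foxp1 peak at chr6:99379395-99379614 was higher in CNS4KO (log2 fold 0.56, adjusted p 0.00382) and remained called under all 12 alternatives, the Foxp1 peak at chr6:99420709-99420969 was lower (-0.62, adjusted p 0.00285), and so was the Foxo3 peak at chr10:42220546-42220732 (-0.73, adjusted p 0.0142).

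Across the 16 libraries, the genes whose log2 summed signal was most like that of Foxp1 among 5031 genes with at least 5 peaks included St8sia6 (Pearson r = 0.948) and Trim25 (0.943). St8sia6 averaged 2123 normalised reads in Treg, 1507 in preTreg, 1841 in labelled mSP and 2216 in labelled smSP libraries. The genes most like Foxo1 were Ctla4 (0.964), Tnip1 (0.963) and Slc12a8 (0.953), and Ctla4 averaged 3772, 2505, 1507 and 1874 in the same order of populations. For Foxo3 they were Dnajb4 (0.838), Zbtb11 (0.823) and Dtd2 (0.791). The 3 genes were little alike, with r = 0.18 for Foxo1 and Foxo3, 0.15 for Foxo1 and Foxp1 and -0.25 for Foxo3 and Foxp1. These 16 points share 4 mice and 4 populations, so the values are descriptions.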

How the data were processed

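The deposited signal values are reads per peak divided by 1 size factor per library (0.697 to 1.449), made by the authors with Trimmomatic 0.36, STAR 2.5.4b, SAMtools 1.10, Genrich, R 3.6.3 and DESeq2 1.24.0 on mm10, per the submitters' processing notes. The sources used here do not say whether insertions were shifted for the transposase. Whole reads were recovered from 100% of values within 0.0001. Peak numbers run to 84054 while 73442 peaks were present. Reads in peaks set the precision, with a median of 38 to 76 reads per peak and library.

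Peaks with a mean of at least 10 were tested with limma 3.58.1 (trend, robust) in R 4.3.3 on log2(value + 1), with 8 group means and Benjamini-Hochberg adjusted p over all peaks. Fold changes on this scale understate weak peaks. For the genotype over all populations each mouse entered as the mean of its 4 libraries, and an F test was used for the interaction. Alternatives were edgeR 4.0.16 (quasi-likelihood), DESeq2 1.42.0, pseudocounts of 0.5 and 5, other filters and scalings, blocks, and libraries left out. The fits were tested on simulated data.

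Members and gene lists were chosen with earlier results of these data known. Named peaks were those over a gene start, the strongest per gene, and the called ones of largest fold, 2 per direction (3 for genotype). The rule had named every peak within 1 kb of a start, and it was narrowed after results were seen. The stepwise sites, the sites at 133.6 kb, the Foxo1 sites at 30.5 and 128.2 kb and the preTreg-low group were also chosen after their values were seen. Each mouse gave 4 libraries, so populations are paired by mouse, from the labels. Deviations of the same mouse correlated by -0.009 to 0.088 (median 0.031), and those of same-numbered mice of the 2 genotypes by 0.006 to 0.052. Some genes that the rules named are not reported here.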

Additional observations from a re-analysis of the deposited data

Results flagged for a closer look

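The genotype effect on the Foxp1 sum differed between the populations, with an interaction adjusted p of 0.006 by limma. The log2 fold of CNS4KO against CNS4FL was -0.18 in Treg, 0.12 in preTreg, 0.12 in labelled mSP and 0.09 in labelled smSP libraries. The call of the interaction was lost in 4 of 25 alternatives.

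In 2 of 112 sets of 4 libraries examined, 1 library stood apart from the others, and chance flags about 1 set in 20. The Foxo3 peak at chr10:42193091-42193275 had 66.55 normalised reads in the first CNS4KO labelled mSP library, against 45.93 to 48.41 in the other 3 labelled mSP libraries. The Foxp1 peak at chr6:99328695-99328892 had 9.232 in the first CNS4KO preTreg library, against 5.139 to 5.514 in the other 3 preTreg libraries.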

How the results depend on the processing

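The Foxp1 sums in Treg against preTreg (log2 fold 0.35 to 0.65), preTreg against labelled mSP (-0.48 to -0.30) and preTreg against labelled smSP (-0.65 to -0.47) kept direction and call under all 24, 25 and 25 alternatives, and the Foxo1 sum in Treg against preTreg (0.21 to 0.40) under all 24. Of 69 called population results of named peaks, 42 were called under every alternative. Leaving out mice and leaving out both T8 libraries were chosen after seeing the data. Over all populations, single libraries were not left out, only mice. The 2 mice per genotype and the 38 to 76 median reads per peak limit the genotype comparisons.

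Counts of called peaks moved as follows. In CNS4KO against CNS4FL in Treg (4) there were 7 by edgeR, 1 by DESeq2, 8 with pseudocount 5, 7 with the mouse as replicate block and 0 with T8 by description. In preTreg (1) there were 0 by DESeq2, quantile normalization and T8 by description. In labelled mSP (0) there was 1 by edgeR, with the compared groups only and without both T8 libraries. Over all populations (3) there were 9 with the label number as block. For the interaction (0) there was 1 by edgeR, pseudocount 5, mean of at least 30, equal totals, quantile normalization and the number block. In labelled mSP against smSP (24) there were 12 in CNS4FL mice, 6 in CNS4KO mice and 0 with T8 by description. In CNS4KO mice alone Treg against preTreg had 33 (72 in all mice) and preTreg against labelled smSP 51 (79). The mouse block changed no population count by over 1.5 times, and of the population sums it changed the call of Foxo3 in Treg against labelled smSP (adjusted p 0.0433).

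With 1 library or mouse left out, counts ran from 0 to 6 (genotype in Treg), 0 to 1 (preTreg, labelled mSP and labelled smSP each), 2 to 12 (over all), 0 to 2 (interaction), 50 to 72 (Treg against preTreg), 60 to 77 (preTreg against labelled smSP) and 10 to 25 (labelled mSP against smSP).

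The directions below turned, and the cause was not tested. Called sums among them were Foxo3 and Foxo1 in preTreg against labelled smSP, Foxo3 in preTreg against labelled mSP and Foxp1 in Treg against labelled mSP (log2 fold 0.14). For Foxo3 in Treg against preTreg the log2 fold was 0.063 by edgeR, 0.034 with equal totals, 0.055 with quantile normalization, 0.059 in CNS4FL mice, 0.067 over gene body peaks, 0.20 as a mean of log2 values (adjusted p 0.0427) and -0.039 to 0.019 with 1 left out. For Foxo3 in preTreg against labelled mSP it was -0.029 by edgeR, -0.0023 over gene body peaks and -0.20 as a mean of log2 values (adjusted p 0.0257), and against labelled smSP -0.038 and -0.15 by edgeR and as a mean of log2 values. For Foxo3 in labelled mSP against smSP it was -0.0084 by edgeR, -0.027 with equal totals, -0.021 with quantile normalization, -0.018 in CNS4KO mice and -0.035 to 0.048 with 1 left out. Foxo1 in preTreg against labelled smSP had -0.034 by edgeR. Foxp1 in Treg against labelled smSP had 0.13 in CNS4FL mice, 0.034 with T8 by description, 0.066 as a mean of log2 values and -0.030 to 0.0098 with 1 left out, and against labelled mSP -0.0060 in CNS4KO mice. For the genotype in preTreg, gene body peaks gave -0.030 for Foxo1 and 0.00099 for Foxo3, and Foxo3 ran from -0.11 to 0.0066 with 1 left out. The Foxp1 genotype call in Treg was lost in 5 of 15 alternatives and its interaction in 4 of 25.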
